A study of Mus musculus with 6 samples.

Results

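The genes described here encode the initiation and elongation factors of translation, with their close regulators. They were taken from the deposited expression table as the entries whose symbol begins with Eif and a digit from 1 to 6, or with Eef and 1 or 2. Of 69 such entries, 4 were pseudogenes and were set aside, and 3 of the other 65 (Eif2c5, Eif4e1b and Eif4e3) had a mean under 1 FPKM over the 6 libraries. FPKM is the number of fragments scaled by transcript length and by the mapped fragments of the library. The remaining 62 genes, of 17169 entries in the table and 14232 that reached a mean of 1 FPKM, are the translation factor genes below. The means just above that limit were those of Eif2c4 (1.31 FPKM), Eif5a2 (3.57 FPKM) and Eif2c3 (3.74 FPKM), and the one just below it was that of Eif4e3 (0.876 FPKM). Eif2s3y, Eef1a2 and Eif4ebp3 were not analysed here.

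The 6 libraries came from 3 mouse cell lines, called BBC, ZNF and BCRF8C. All came from the marrow of Balb/c mice that had developed SCLL (stem cell leukemia and lymphoma), in which FGFR1 is active as part of a fusion kinase. Each line was kept for 24 h with BGJ398 (infigratinib), a compound that inhibits FGFR kinases, or with DMSO as the solvent control, and both groups are otherwise the same lines in the same medium. The study asked how the transcriptome of these lines changes when FGFR1 is inhibited. The protocol lists doses of 30, 3 and 1.5 nM, which belong to BBC, ZNF and BCRF8C if the list follows the order of the lines. There was 1 library for each line and agent, no repeat culture is named, and each line stands for itself as a model. A p-value thus sets the change against a spread between 3 lines that also differ in dose. Limma, the test used below, moderates that spread toward entries at a similar level, so it is not that of the gene alone. Sequencing depth is unknown, because the table gives no counts.

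Translation begins when a small ribosomal subunit, loaded with initiator tRNA by eIF2, is brought to the capped end of an mRNA. The cap is bound by eIF4E, which sits with the scaffold eIF4G and the RNA helicase eIF4A, while eIF3 links this assembly to the ribosome, and eIF1 and eIF1A help to pick the start codon. Initiation is regulated at eIF2, through kinases that phosphorylate it and through its exchange factor eIF2B, and at eIF4E, through binding proteins that compete with eIF4G. Elongation then depends on eEF1A, which delivers aminoacyl-tRNA, and on eEF2, which moves the ribosome along. Many of these mRNAs belong to the most abundant housekeeping transcripts of growing cells.

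Translation factor transcripts were lower with BGJ398 on the deposited scale. In limma's moderated test on log2(FPKM + 1), with the line as a block, 38 of the 62 genes (61.3%) fell at an adjusted p under 0.05, 0 rose and 24 did not pass. Over all 14232 entries tested, 30.2% were called lower and 6.61% higher. The median log2 ratio of the factor genes, BGJ398 over DMSO, was -1.57, against -0.69 over all entries. At an unadjusted p under 0.05, limma gave 51 genes lower and 0 higher (43.3% and 11.6% of all entries). The adjusted p of the 38 genes lay between 0.0348 and 0.0444, close to the threshold. Without the BBC pair limma called 0 of the 62 genes, and 0% of all entries were called lower. At an unadjusted p under 0.05, limma then gave 14 genes (22.6%, beside 21% of all entries). Of these, 13 were lower (21%, beside 8.34% of all entries) and 1 higher (1.61%, beside 12.7%). Without the BCRF8C pair it called 2, Eif3i and Eif4ebp1 (5.99% of all entries lower), and without the ZNF pair 47, the 38 among them (33.7%).

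The size of the fall has to be read against the level of the genes. The table as a whole was lower with BGJ398, and more so at higher levels. The median of all entries was at 9.95 FPKM with DMSO and 4.53 FPKM with BGJ398 in BBC, at 8.36 and 6.47 FPKM in ZNF, and at 9.03 and 4.92 FPKM in BCRF8C. Factor genes had a median level of 48.9 FPKM over the libraries, against 8.45 FPKM for all entries tested. In the fit of entries whose mean reached 5 FPKM, 42 of 59 factor genes were called lower (71.2%), beside 53.9% of all entries. When the libraries were rescaled by the median of ratios, which moved the median of all entries to -0.02, the median of the factor genes was -0.76. Quantile normalization gave -0.40, with -0.10 for all entries. After the trend of the ratio on mean expression was removed within each line, the factor genes had a median of -0.21 and all entries one of 0.03. No factor gene passed limma's adjusted threshold under any of these scalings, where the background of lower calls was 0.00703%, 0.00703% and 0%, and 36, 15 and 15 genes had an unadjusted p under 0.05. These were 58.1%, 24.2% and 24.2% of the factor genes, beside 39.1%, 23.5% and 21.7% of all entries. The 36 were 34 lower and 2 higher, and the 15 with quantile normalization 14 lower and 1 higher. The 15 with the trend removed were 13 lower and 2 higher (Eif3j and Eif4g3). In the same order, the lower genes were 54.8%, 22.6% and 21% of the factor genes, beside 19.6%, 13.4% and 9.79% of all entries. The higher ones were 3.23%, 1.61% and 3.23%, beside 19.4%, 10% and 11.9%. The mean ratio was below 0 for 53 of the 62 genes under the median of ratios (51.1% of all entries) and for 49 with quantile normalization (55.1%). FPKM is scaled by the mapped fragments of each library, so neither the number of cells nor the RNA per cell can be read from it. The summed FPKM of a library ran from 607561 (BCRF8C with BGJ398) to 4518739 (ZNF with DMSO). The cause of the lower values across the table was not tested.

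**Figure D1:**
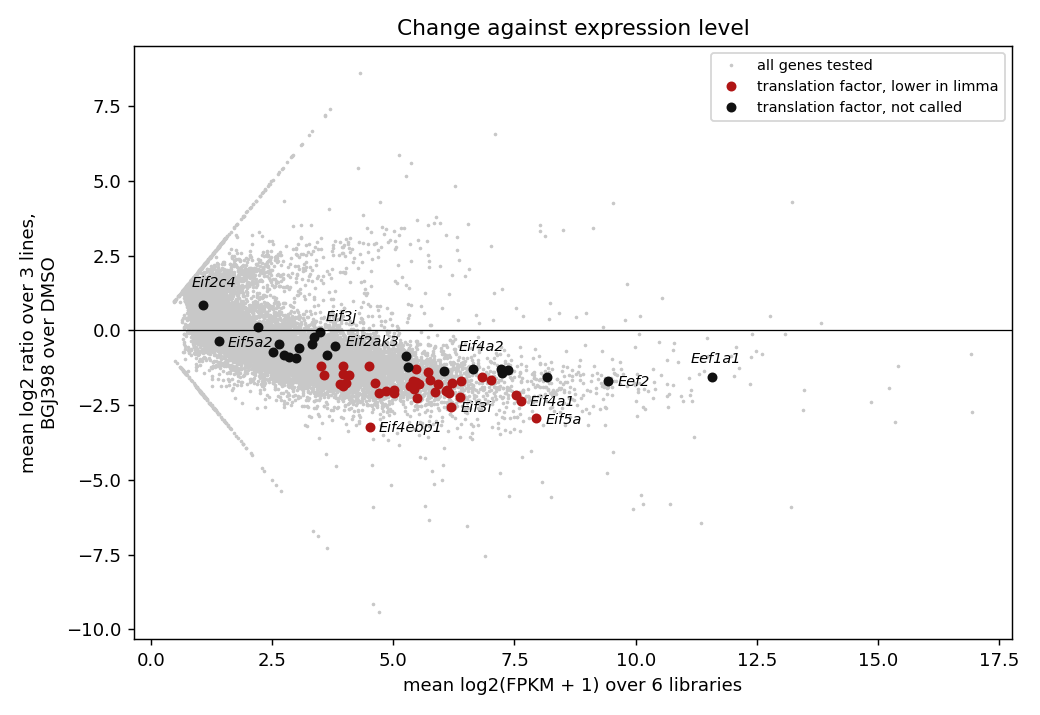
Mean log2 ratio of (FPKM + 1), BGJ398 over DMSO, over 3 lines (vertical axis) against mean log2(FPKM + 1) over 6 libraries (horizontal axis) for all entries tested (grey), factor genes called lower by limma (red) and factor genes not called (black). Factor genes lie mostly to the right, where the grey points also lie below 0, with Eif4ebp1 at -3.23 the lowest of them.

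The ratio was lower than 0 in all 3 lines for 56 of the 62 genes, against 55.7% of all entries, and the other 6 genes differed in direction between lines. All 3 BGJ398 values lay below all 3 DMSO values for 44 genes, against 35.1% of all entries. With the trend removed, the mean ratio was below 0 for 41 of the 62 genes (48.4% of all entries), and it was lower in all 3 lines for 20 genes (25.4%) and higher in all 3 for 7 (26.7%). The lines also differed in the size of the ratio. At least 2-fold lower values were found for 52 of 62 genes in BBC (83.9%; 48.3% of all entries), 17 of 60 in ZNF (28.3%; 16.4%) and 49 of 62 in BCRF8C (79%; 46.3%). At least 2-fold higher values were found for 0 genes in BBC and ZNF and for 1, Eif2c4, in BCRF8C, where the background was 7.52%, 12.7% and 17.8%. The factor genes' median log2 ratio was -1.95 in BBC, -0.82 in ZNF and -1.91 in BCRF8C, beside -0.96, -0.49 and -0.90 over all entries of each line. ZNF had the highest ratio of the lines for 55 of 62 genes, as it had for 61.2% of all entries. These counts have no replicate check, since each line has 1 library per agent.

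Ranks within a library do not depend on how the library is scaled. The median factor gene stood at percentile 87.4 of the entries tested in BBC with DMSO and at 76.4 with BGJ398, at 90.7 and 89.3 in ZNF, and at 90.3 and 86.2 in BCRF8C. In all 3 lines 31 of the 62 genes had a lower rank with BGJ398, against 30% of all entries, and 5 had a higher one (Eif2a, Eif2ak1, Eif2c3, Eif3j and Eif4g3), against 20.7%. The summed FPKM of the 62 genes was 0.603% of the library in BBC with DMSO and 0.349% with BGJ398, 0.307% and 0.530% in ZNF, and 0.715% and 0.479% in BCRF8C. The ZNF share was thus higher with BGJ398, but a single entry held 38.5% of the ZNF library with DMSO. Without the 1% of entries with the highest mean, which include Eef1a1 and Eef2, the share was lower with BGJ398 in each line, at 1.20% and 0.560% in BBC, 1.77% and 1.54% in ZNF, and 1.40% and 0.789% in BCRF8C.

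The cell types were checked with marker genes. All 3 blood markers in the table (Ptprc, Coro1a and Laptm5) were above 1 FPKM in each library. Coro1a was low in BCRF8C, at 1.38 FPKM with DMSO and 2.85 FPKM with BGJ398, against at least 52.0 FPKM in the other lines. Among B lineage markers, Igll1 was at 546 FPKM in BBC with DMSO and 252 FPKM with BGJ398, and Cd79b at 232 and 139.6 FPKM. Cd79b, Vpreb1 and Igll1 were listed at 0 in ZNF and BCRF8C, where Cd79a, Pax5 and Ebf1 reached at most 6.48 FPKM. T lineage markers (5 in the table) summed to 780 and 495 FPKM in ZNF and to between 44.5 and 95.6 FPKM in the other lines, with Cd3d listed at 0 in BCRF8C. Most of the BCRF8C sums was Thy1, at 92.3 FPKM with DMSO and 43.6 FPKM with BGJ398. In BBC most came from Lck (28.6 and 27.5 FPKM) and Thy1 (31.6 and 11.8 FPKM). Sums of myeloid and stromal markers were higher with BGJ398 in each line but did not exceed 14.9 FPKM. B lineage sums outside BBC were also higher with BGJ398, at 0.430 and 7.52 FPKM in ZNF and 0.654 and 9.10 FPKM in BCRF8C. Rises from low DMSO values were thus not particular to the myeloid and stromal lists. Erythroid markers were at 0 outside BBC, where they summed to 22.5 and 9.99 FPKM. The part of these cell types in the values of the factor genes was not tested.

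**Figure D2:**
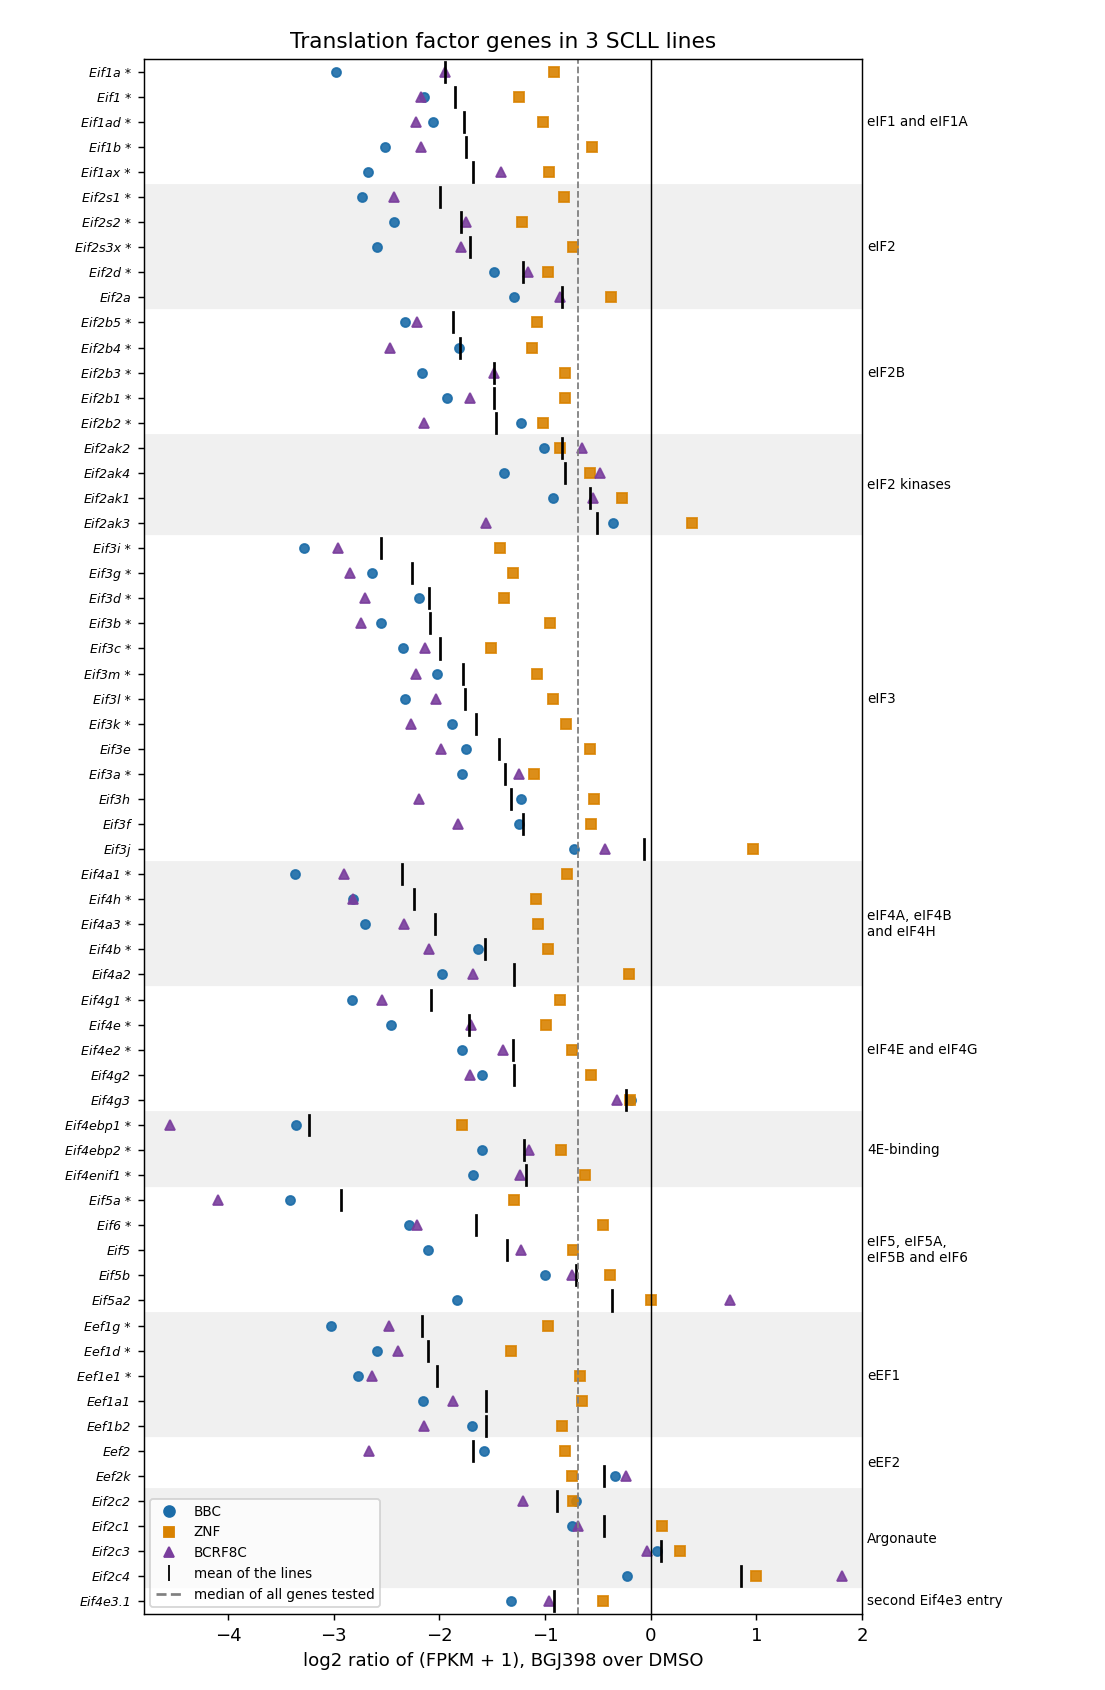
Log2 ratio of (FPKM + 1), BGJ398 over DMSO, for each of the 62 genes in BBC (circles), ZNF (squares) and BCRF8C (triangles), with the mean of the lines as a bar, an asterisk for genes called lower by limma, and the median of all entries (-0.69) as a dashed line. Most squares lie nearer to 0 than the circles and triangles, and the kinases of eIF2 and the Argonaute genes have medians further right than those of the other groups.

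The start codon factors eIF1 and eIF1A had 5 genes, and all 5 fell, with a median log2 ratio of -1.77 (-0.53 with the trend removed). Beside this and each later group count, 30.2% of all entries were called lower (53.9% in the fit of means from 5 FPKM). The groups also differ in level. Median FPKM was 9.78 for the eIF2 kinases and 4.75 for the Argonaute genes, which had 0 calls, against 49.2 here and 256 for eEF1. However, eEF2 at 433 FPKM also had 0 calls, and at 18.1 FPKM all 5 eIF2B genes fell. Eif1a, which encodes a form of eIF1A, was at 91.9, 83.5 and 76.0 FPKM with DMSO in BBC, ZNF and BCRF8C, and at 10.8, 43.8 and 19.0 FPKM with BGJ398. The groups did not overlap, and the log2 ratio was -1.95 ± 1.03 (SD, n = 3 lines; limma adjusted p = 0.0350). Its X-linked counterpart Eif1ax was at 79.4, 61.2 and 87.6 FPKM with DMSO and at 11.6, 30.9 and 32.1 FPKM with BGJ398, a log2 ratio of -1.69 ± 0.89 (SD, n = 3; limma adjusted p = 0.0372). Eif1, which scans for the start codon with eIF1A, was at 64.4 FPKM with DMSO and 13.8 FPKM with BGJ398 in BBC, at 70.4 and 29.0 FPKM in ZNF, and at 97.0 and 20.7 FPKM in BCRF8C (-1.86 ± 0.53, SD, n = 3; limma adjusted p = 0.0348). Its paralogue Eif1b was at 45.3 FPKM with DMSO and 7.12 FPKM with BGJ398 in BBC, at 49.2 and 33.1 FPKM in ZNF, and at 38.6 and 7.79 FPKM in BCRF8C (-1.75 ± 1.05; limma adjusted p = 0.0372). Eif1ad, named for its eIF1A domain, had a log2 ratio of -1.77.

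In the eIF2 group, which carries the initiator tRNA, 4 of 5 genes fell and the median was -1.71 (-0.19 with the trend removed). Eif2s1, the alpha subunit that the stress kinases phosphorylate, was at 60.3, 71.6 and 59.4 FPKM with DMSO and at 8.24, 40.1 and 10.2 FPKM with BGJ398. Every BGJ398 value lay below every DMSO value (log2 ratio -1.99 ± 1.03, SD, n = 3; limma adjusted p = 0.0348). The beta subunit Eif2s2 and the gamma subunit Eif2s3x had ratios of -1.80 and -1.71. Eif2d, a factor for non-canonical delivery of tRNA, had one of -1.21. Eif2a, whose product is a separate tRNA-binding protein despite its name, did not pass: it was at 60.8 FPKM with DMSO and 24.2 FPKM with BGJ398 in BBC, at 46.4 and 35.5 FPKM in ZNF, and at 46.2 and 25.1 FPKM in BCRF8C (-0.84 ± 0.46; limma adjusted p = 0.102). Its ratio was above 0 with quantile normalization (0.39) and with the trend removed (0.51).

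All 5 subunit genes of eIF2B, the nucleotide exchange factor that recharges eIF2, fell, with ratios between -1.87 and -1.47 and a median of -1.48 (-0.49 with the trend removed). Eif2b5, the catalytic subunit, was at 31.6 FPKM with DMSO and 5.52 FPKM with BGJ398 in BBC, at 41.6 and 19.2 FPKM in ZNF, and at 18.4 and 3.19 FPKM in BCRF8C. The ZNF value with BGJ398 lay above the BCRF8C value with DMSO, so the groups overlapped (-1.87 ± 0.69; limma adjusted p = 0.0348). Eif2b2 was at 26.8 FPKM with DMSO and 10.9 FPKM with BGJ398 in BBC, at 34.8 and 16.6 FPKM in ZNF, and at 16.7 and 2.98 FPKM in BCRF8C (-1.47 ± 0.60; limma adjusted p = 0.0349).

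None of the 4 kinases of eIF2 passed the test, and their median was -0.70, close to that of all entries. It was above 0 under the median of ratios (0.02), quantile normalization (0.13) and removal of the trend (0.25). Limma gave 2 of the 4, Eif2ak2 and Eif2ak4, an unadjusted p under 0.05 (0.0253 and 0.0393). Both were lower, beside 43.3% of all entries lower at that threshold. Eif2ak2 encodes PKR, the kinase activated by double-stranded RNA, and its values were at 15.8 FPKM with DMSO and 7.37 FPKM with BGJ398 in BBC, at 16.6 and 8.71 FPKM in ZNF, and at 14.6 and 8.995 FPKM in BCRF8C (-0.84 ± 0.18; limma adjusted p = 0.0596). Eif2ak3 encodes PERK, the kinase of the endoplasmic reticulum, and its lines differed in direction: 13.2 to 10.1 FPKM in BBC, 16.0 to 21.4 FPKM in ZNF and 17.8 to 5.37 FPKM in BCRF8C (-0.51 ± 0.99; limma adjusted p = 0.352). The heme-regulated kinase gene Eif2ak1 had a ratio of -0.58, and Eif2ak4, which encodes the amino acid sensor GCN2, one of -0.82.

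The 13 genes of eIF3, the large scaffold on the small ribosomal subunit, had a median of -1.76 (-0.29 with the trend removed), and 9 of them fell. Eif3i, a WD-repeat subunit, was at 159 FPKM in BBC, 213 in ZNF and 163 in BCRF8C with DMSO, and at 15.5, 78.6 and 20.1 FPKM with BGJ398. No BGJ398 value reached a DMSO value (-2.56 ± 0.99; limma adjusted p = 0.0348), and the ratio was below 0 in each line also with the trend removed (-1.58, -0.49 and -1.19). The core subunits Eif3b and Eif3c had ratios of -2.08 and -2.0, and Eif3g and Eif3d of -2.26 and -2.10. Eif3a, the largest subunit, had a smaller one of -1.38, which was 0.07 with the trend removed. The 4 genes that did not pass were Eif3e, Eif3f, Eif3h and Eif3j.

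Eif3j encodes the loosely attached subunit that acts in the decoding center of the ribosome. Its values were at 8.86 FPKM with DMSO and 4.98 FPKM with BGJ398 in BBC, at 6.43 and 13.5 FPKM in ZNF, and at 19.6 and 14.3 FPKM in BCRF8C. They were thus higher with BGJ398 in ZNF and lower in the other lines, and the mean ratio was -0.06 ± 0.90 (limma adjusted p = 0.908). Its rank among the entries tested was higher with BGJ398 in each line, at percentile 47.3 and 53.1 in BBC, 44.7 and 71.0 in ZNF, and 67.9 and 81.6 in BCRF8C. With the trend removed, its ratio was 0.35 in BBC, 1.50 in ZNF and 0.96 in BCRF8C. The Eif3j entry shares its locus with another entry of the table, so its fragments may be divided between them.

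**Figure D3:**
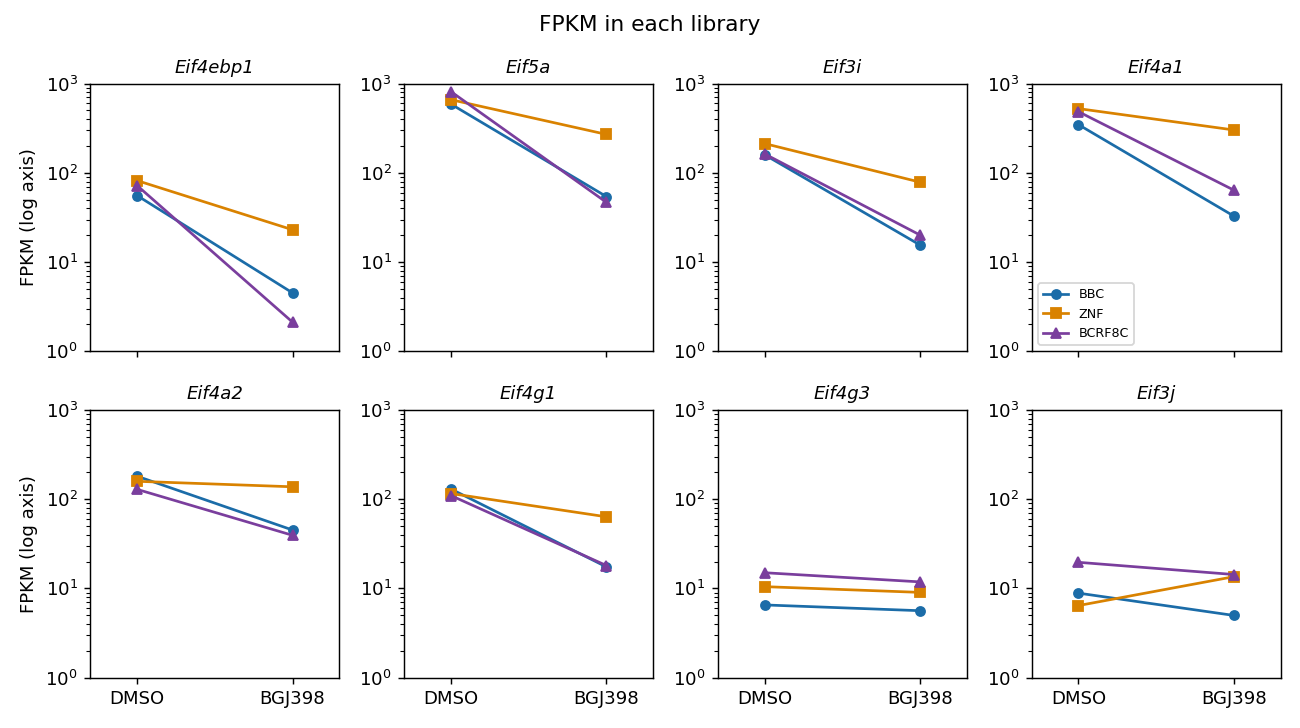
FPKM on a log axis in each library of BBC (circles), ZNF (squares) and BCRF8C (triangles), DMSO joined to BGJ398 of the same line, for 8 factor genes. Eif4ebp1, Eif5a, Eif3i, Eif4a1 and Eif4g1 drop in each line and least in ZNF, while Eif4g3 keeps within 5.63 to 15.0 FPKM and Eif3j goes up in ZNF.

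Of the RNA helicase eIF4A and its cofactors eIF4B and eIF4H, 4 of 5 genes fell, and the median of -2.04 was the lowest of the 12 factor groups, next to -2.03 for eEF1 (-0.57 with the trend removed). Eif4a1, the main helicase gene of dividing cells, was at 347, 525 and 485 FPKM with DMSO in BBC, ZNF and BCRF8C, and at 32.8, 302 and 64.0 FPKM with BGJ398. All 3 DMSO values lay above the BGJ398 values (-2.35 ± 1.37; limma adjusted p = 0.0386). Eif4a2, which encodes a close paralogue of that enzyme, was at 181 FPKM with DMSO and 45.1 FPKM with BGJ398 in BBC, at 159 and 138 FPKM in ZNF, and at 129 and 39.4 FPKM in BCRF8C. The Eif4a2 groups overlapped, since ZNF with BGJ398 lay above BCRF8C with DMSO, and the gene did not pass (-1.29 ± 0.95; limma adjusted p = 0.0806). Eif4h had a ratio of -2.24, Eif4b of -1.57, and Eif4a3, the helicase of the exon junction complex, of -2.04. The pseudogene Eif4a-ps4, which shares sequence with an eIF4A gene, was at 33.2 FPKM with DMSO and 3.04 FPKM with BGJ398 in BBC, at 131 and 32.4 FPKM in ZNF, and at 24.1 and 1.18 FPKM in BCRF8C, and how fragments were divided between the copies is not given in the sources used here.

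The cap-binding and scaffold genes differed among themselves. Their median was -1.31 (0.08 with the trend removed), and 3 of 5 fell. Eif4g1, the main scaffold of the cap-binding complex, was at 130.3 FPKM with DMSO and 17.4 FPKM with BGJ398 in BBC, at 116 and 63.5 FPKM in ZNF, and at 109.99 and 18.1 FPKM in BCRF8C. The groups did not overlap (-2.08 ± 1.07; limma adjusted p = 0.0350). Eif4g2, a scaffold that lacks the eIF4E-binding site, was at 149 FPKM with DMSO and 48.7 FPKM with BGJ398 in BBC, at 317 and 213 FPKM in ZNF, and at 271 and 82.1 FPKM in BCRF8C and did not pass (-1.29 ± 0.63; limma adjusted p = 0.0710). Eif4g3 was at 6.53, 10.5 and 15.0 FPKM with DMSO and at 5.63, 9.03 and 11.8 FPKM with BGJ398, and its groups overlapped (-0.23 ± 0.07; limma adjusted p = 0.503). The Eif4g3 ratio was the smallest in size among the genes of this group, and it was above 0 under all 3 other scalings (0.49, 0.63 and 0.72). Eif4e, the cap-binding protein itself, was at 103 FPKM with DMSO and 17.9 FPKM with BGJ398 in BBC, at 58.4 and 28.8 FPKM in ZNF, and at 84.4 and 25.3 FPKM in BCRF8C (-1.72 ± 0.73; limma adjusted p = 0.0350). Eif4e2, a related cap-binding protein, was at 47.6 FPKM with DMSO and 13.1 FPKM with BGJ398 in BBC, at 71.9 and 42.6 FPKM in ZNF, and at 95.7 and 35.7 FPKM in BCRF8C (-1.31 ± 0.53; limma adjusted p = 0.0431), and its ratio was 0.08 with the trend removed. An entry named Eif4e3.1 at the Eif4e3 locus did not pass, at 12.5, 5.35 and 14.4 FPKM with DMSO and 4.39, 3.63 and 6.91 FPKM with BGJ398 (-0.91 ± 0.44; limma adjusted p = 0.0560).

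Promoter sequences are shown for the 5 genes of the helicase group and for Eif4g1, so that genes that fell with and without a shared motif can be set beside each other. They are the 250 bases before the first listed start of each gene in RefSeq (build GRCm38.p6, which is not the build of the expression table), 5′ to 3′ on the gene's strand. Capitals mark CACGTG, the E-box, a palindrome that MYC and other factors of its class can bind. The windows are chr11:69672424-69672673 on the minus strand for Eif4a1, chr16:23107218-23107467 on the plus strand for Eif4a2, chr11:119300044-119300293 on the minus strand for Eif4a3, chr15:102073523-102073772 on the plus strand for Eif4b, chr5:134639410-134639659 on the minus strand for Eif4h and chr16:20672477-20672726 on the plus strand for Eif4g1.
Eif4a1: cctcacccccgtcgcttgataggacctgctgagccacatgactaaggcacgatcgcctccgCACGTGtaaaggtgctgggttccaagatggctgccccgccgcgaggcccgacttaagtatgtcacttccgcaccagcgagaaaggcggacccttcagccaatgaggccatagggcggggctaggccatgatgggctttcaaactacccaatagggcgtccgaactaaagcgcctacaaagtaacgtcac
Eif4a2: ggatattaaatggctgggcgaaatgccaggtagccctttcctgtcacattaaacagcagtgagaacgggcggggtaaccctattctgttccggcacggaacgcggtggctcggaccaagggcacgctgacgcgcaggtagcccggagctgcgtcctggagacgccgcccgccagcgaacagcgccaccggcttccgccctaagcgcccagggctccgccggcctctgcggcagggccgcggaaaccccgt
Eif4a3: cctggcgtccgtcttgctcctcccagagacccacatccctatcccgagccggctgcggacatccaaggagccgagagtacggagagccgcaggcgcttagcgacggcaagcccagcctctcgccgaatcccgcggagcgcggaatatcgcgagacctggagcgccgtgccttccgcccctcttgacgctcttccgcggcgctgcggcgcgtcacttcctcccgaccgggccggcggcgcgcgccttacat
Eif4b: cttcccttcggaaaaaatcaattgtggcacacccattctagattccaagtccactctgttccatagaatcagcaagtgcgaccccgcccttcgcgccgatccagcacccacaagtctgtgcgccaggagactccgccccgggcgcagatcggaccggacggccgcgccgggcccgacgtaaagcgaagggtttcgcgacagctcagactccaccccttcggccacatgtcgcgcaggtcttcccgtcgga
Eif4h: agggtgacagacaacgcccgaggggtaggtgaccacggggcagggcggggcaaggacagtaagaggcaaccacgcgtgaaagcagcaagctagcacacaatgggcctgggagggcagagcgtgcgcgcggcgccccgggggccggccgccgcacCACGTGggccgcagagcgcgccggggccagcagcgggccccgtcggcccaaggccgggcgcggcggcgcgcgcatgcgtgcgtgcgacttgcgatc
Eif4g1: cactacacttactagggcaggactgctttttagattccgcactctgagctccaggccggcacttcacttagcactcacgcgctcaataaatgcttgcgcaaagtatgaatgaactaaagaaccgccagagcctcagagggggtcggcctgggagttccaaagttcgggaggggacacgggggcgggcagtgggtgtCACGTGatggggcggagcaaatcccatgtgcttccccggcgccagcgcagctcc
The E-box begins 189 bases before the start of Eif4a1, 96 bases before that of Eif4h and 54 bases before that of Eif4g1. These letters are not in the windows of Eif4a3 and Eif4b, which fell, or of Eif4a2, which did not pass. Genes that hold the box and did not pass (Eef2, Eef2k, Eif3f and Eif5a2) are not among the windows shown.

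Across the factor genes, 50 of 62 matched a RefSeq promoter, 4 of them through an older symbol. The E-box was present before the first listed start in 9 of the 50 (18%), against 6.05% of 27025 RefSeq genes and 8.4% of the 9591 tested genes matched by symbol. The 9 genes were Eef2, Eef2k, Eif1b, Eif3f, Eif3k, Eif4a1, Eif4g1, Eif4h and Eif5a2. Their median log2 ratio was -1.69, and that of the 41 genes without the box was -1.56 (-0.41 and -0.19 with the trend removed). Of the genes with the box 5 of 9 fell, and of those without it 26 of 41. Eif5a and Eif4e are among the 41, but hold the box before another of their listed starts (3 of 6 and 1 of 2). Counted over any listed start, 11 of 50 genes held it (22%; 6.86% of RefSeq genes), of which 7 fell, against 24 of the other 39, with median ratios of -1.72 and -1.48. A match to these letters is a description of sequence only.

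All 3 genes of proteins that bind eIF4E fell, with a median of -1.20 (-0.21 with the trend removed). Eif4ebp1 encodes the binding protein that is released from eIF4E when mTOR phosphorylates it, and it had the lowest ratio of the 62 genes. The gene spans chr8:28370799-28386128 in the build of the table (NCBIM37), in which Eif5a spans chr11:69730216-69735460, Eif4a1 chr11:69480438-69485925, Eif4g1 chr16:20668386-20692957 and Eif3i chr4:129269204-129277892. Eif4ebp1 was at 55.7 FPKM with DMSO and 4.52 FPKM with BGJ398 in BBC, at 81.9 and 23.0 FPKM in ZNF, and at 72.0 and 2.12 FPKM in BCRF8C. The highest BGJ398 value was below the lowest DMSO value, and the log2 ratio was -3.23 ± 1.39 (SD, n = 3 lines; limma adjusted p = 0.0348). With the trend removed the ratio was still below 0 throughout (BBC -1.96, ZNF -0.96, BCRF8C -3.24). In BCRF8C its rank went from percentile 90.0 to percentile 20.9 of the entries tested. The paralogue Eif4ebp2 was at 14.2 FPKM with DMSO and 4.02 FPKM with BGJ398 in BBC, at 15.4 and 8.10 FPKM in ZNF, and at 19.4 and 8.16 FPKM in BCRF8C (-1.20 ± 0.38; limma adjusted p = 0.0358). Eif4enif1, which encodes the carrier of eIF4E into the nucleus, was at 29.8 FPKM with DMSO and 8.59 FPKM with BGJ398 in BBC, at 27.4 and 17.4 FPKM in ZNF, and at 44.4 and 18.3 FPKM in BCRF8C (-1.18 ± 0.53; limma adjusted p = 0.0444), with a ratio of 0.04 when the trend was removed.

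The factors of subunit joining and the first peptide bonds had a median of -1.36 (-0.21 with the trend removed), and 2 of 5 genes fell, Eif5a and Eif6. Eif5a encodes the protein that carries the amino acid hypusine and helps the ribosome through difficult peptide bonds. It was at 590.4, 661 and 816 FPKM with DMSO in BBC, ZNF and BCRF8C, and at 54.3, 270.01 and 46.8 FPKM with BGJ398. Its groups did not overlap (-2.93 ± 1.46; limma adjusted p = 0.0348), and with the trend removed the ratio was -1.60, -0.41 and -1.90. The paralogue Eif5a2 was at 15.4 and 3.60 FPKM in BBC, was listed at 0 in both ZNF libraries, and was at 0.631 and 1.74 FPKM in BCRF8C, with no common direction (limma adjusted p = 0.605). Eif6, which keeps the ribosomal subunits apart, had a ratio of -1.65. Eif5, which triggers GTP hydrolysis on eIF2, and Eif5b, the subunit-joining GTPase, did not pass, at -1.36 and -0.71.

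In the eEF1 group, 3 of 5 genes fell and the median was -2.03 (-0.54 with the trend removed). Eef1g, a subunit of the exchange complex, was at 324 FPKM with DMSO and 38.9 FPKM with BGJ398 in BBC, at 460.2 and 234 FPKM in ZNF, and at 405 and 71.8 FPKM in BCRF8C, without overlap (-2.16 ± 1.06; limma adjusted p = 0.0372). Eef1d, the delta subunit, had a ratio of -2.10, and Eef1e1, a scaffold of the tRNA synthetase complex, one of -2.03. The exchange subunit gene Eef1b2 was at 353 FPKM with DMSO and 108 FPKM with BGJ398 in BBC, at 936 and 521 FPKM in ZNF, and at 373 and 83.7 FPKM in BCRF8C and did not pass (-1.56 ± 0.66; limma adjusted p = 0.0623). Eef1a1, which delivers aminoacyl-tRNA, had the highest level of the 62 genes. It was at 5609 FPKM with DMSO and 1258 FPKM with BGJ398 in BBC, at 5012 and 3185 FPKM in ZNF, and at 5176 and 1412 FPKM in BCRF8C, with no overlap of the groups, and did not pass (-1.56 ± 0.80; limma adjusted p = 0.209). It kept a percentile between 99.5 and 99.8 in every library.

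Neither gene of the eEF2 group passed, and the median was -1.06 (0.20 with the trend removed). Limma gave Eef2 an unadjusted p of 0.0482. Eef2, the translocation factor, was at 1501, 1233 and 1038 FPKM with DMSO and at 502, 702 and 162 FPKM with BGJ398 (-1.69 ± 0.93; limma adjusted p = 0.0887), again with no overlap. Eef2k encodes the kinase that inhibits eEF2. It was at 13.5 FPKM with DMSO and 10.5 FPKM with BGJ398 in BBC, at 15.2 and 8.67 FPKM in ZNF, and at 5.66 and 4.66 FPKM in BCRF8C (-0.44 ± 0.27; limma adjusted p = 0.237), and it was the 1 gene of the 62 with its lowest ratio in ZNF.

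The remaining 4 genes met the rule by name alone, since Eif2c1 to Eif2c4 are older symbols of the Argonaute genes, which act in silencing by small RNAs. None passed the test, and their median was -0.17, above that of all entries. Limma gave 1 of them, Eif2c2, an unadjusted p under 0.05 (0.0193), where 43.3% of all entries were lower at that threshold. Eif2c2, the Argonaute with slicing activity, was at 6.89 FPKM with DMSO and 3.83 FPKM with BGJ398 in BBC, at 9.64 and 5.39 FPKM in ZNF, and at 10.1 and 3.79 FPKM in BCRF8C (-0.89 ± 0.28; limma adjusted p = 0.0513). Eif2c4 was at 1.67 FPKM with DMSO and 1.28 FPKM with BGJ398 in BBC, at 0.236 and 1.47 FPKM in ZNF, and at 0.163 and 3.07 FPKM in BCRF8C, levels near the filter (0.86 ± 1.02; limma adjusted p = 0.206).

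Ratios of genes within a library lessen the effect of a factor common to that library, though not of a trend with level. They were computed on FPKM + 1 for 10 pairs, so a common factor does not cancel fully for low genes such as Eif5a2 and Eif4ebp1. No test was made, since 3 pairs cannot give a sign-flip p below 0.25. Eif4a1 over Eif4a2 was 1.91 with DMSO and 0.732 with BGJ398 in BBC, 3.29 and 2.19 in ZNF, and 3.74 and 1.61 in BCRF8C, a log2 change of -1.07 ± 0.42 (SD, n = 3 lines). Eif4a1, Eif4a2 and Eif4g2 each share a locus with other entries of the table, so their fragments may be divided. Within the scaffolds, Eif4g1 over Eif4g3 changed by -2.65, -0.66 and -2.22 and Eif4g1 over Eif4g2 by -1.24, -0.29 and -0.83, so Eif4g1 was lower relative to both in each line. Eif4e over its inhibitor Eif4ebp1 moved the other way, with 1.84 and 3.43 in BBC, 0.717 and 1.24 in ZNF, and 1.17 and 8.43 in BCRF8C (1.51 ± 1.16 on the log2 scale; 1.72 with a pseudocount of 0.1 and 1.01 with one of 5). Against the second binding protein, Eif4e over Eif4ebp2 changed by -0.52 ± 0.36, and Eif4e over Eif4e2 changed by -0.41 ± 0.23. Eef2 over its kinase gene Eef2k changed by -1.24 in BBC, -0.07 in ZNF and -2.43 in BCRF8C. Eif5a over Eif5a2 changed by -1.58 in BBC and -4.84 in BCRF8C and was not computed in ZNF. The BCRF8C change rests on low Eif5a2 values of 0.631 FPKM with DMSO and 1.74 FPKM with BGJ398. Eif1 over Eif1b and Eif1ax over Eif1a differed in direction between lines, with mean changes of -0.11 ± 0.54 and 0.26 ± 0.29.

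**Figure D4:**
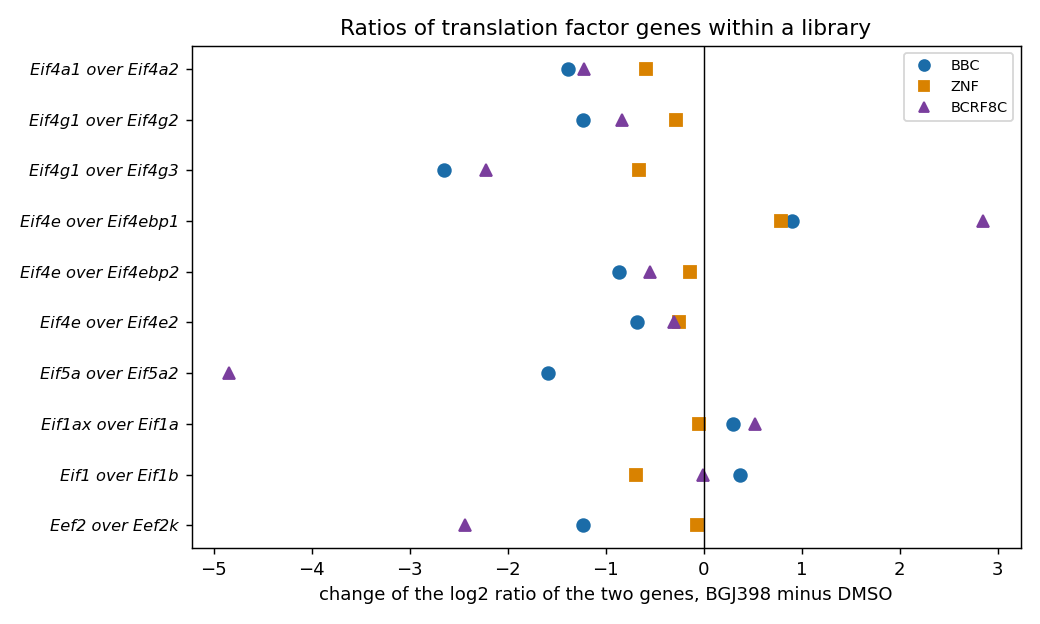
Change of the log2 ratio of paired genes within a library, BGJ398 minus DMSO, in BBC (circles), ZNF (squares) and BCRF8C (triangles). Eif4a1 over Eif4a2 and Eif4g1 over Eif4g2 or Eif4g3 lie below 0 in each line, and Eif4e over Eif4ebp1 lies above 0 in each line, at 2.85 in BCRF8C.

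Other genes of translation control were described from a list of 43, of which 42 were tested and Gspt2 had a mean under 1 FPKM. Of the 42, 21 fell (50%), 0 rose and 21 did not pass, with a median of -1.10 (-0.02 with the trend removed). Over all entries tested, 30.2% were called lower and 6.61% higher, with a median of -0.69 (0.03 with the trend removed). At an unadjusted p under 0.05, limma gave 30 of the 42 lower and 0 higher (43.3% and 11.6% of all entries). Among those that fell were the termination factor Etf1 (-2.0 ± 0.86; limma adjusted p = 0.0348), Dohh, the enzyme that completes hypusine on eIF5A (-1.99 ± 1.05; limma adjusted p = 0.0348), and Mknk2, a kinase of eIF4E (-1.91 ± 0.999; limma adjusted p = 0.0352). Dhps, which starts the hypusine modification, had a ratio of -0.99 ± 0.87 and did not pass (limma adjusted p = 0.0873). Pdcd4, an inhibitor of eIF4A, was at 20.3, 36.6 and 19.7 FPKM with DMSO and at 21.4, 32.8 and 17.0 FPKM with BGJ398 (-0.10 ± 0.15; limma adjusted p = 0.810). The kinase gene Mtor had a ratio of -0.39, and Cyfip1, which encodes an eIF4E-binding protein of neurons and other cells, one of 0.78 ± 0.71 (limma adjusted p = 0.133). Eif4ebp1 was lower than each of these 42 genes in its mean log2 ratio.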

How the data were processed

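Total RNA of mouse cell lines was sequenced in 6 libraries. The authors deposited FPKM values for 17169 entries in 1 table. TopHat2 (version 2.0.12), bcl2fastq and build NCBIM37 are named in the submitters' processing notes. How FPKM was estimated is not given in the sources used here, and no counts or depths are known, so no counting interval was computed. Each of the 6 value columns matched 1 sample title, and 0 were left unmapped.

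Values were analysed as log2(FPKM + 1), which understates changes of low genes. The 14232 entries whose mean reached 1 FPKM entered limma (R 4.3.3, limma 3.58.1, eBayes with trend) with the line as a block. P-values are two-sided and adjusted by Benjamini-Hochberg over these entries, with a threshold of 0.05. The block leaves 2 residual degrees of freedom, to which limma adds prior ones. Its standard error draws on entries at a similar level, so it does not follow from the printed SD. Eif4g3 had an SD of 0.07 and a limma standard error of 0.28, and Eif4a1 an SD of 1.37 and one of 0.64. Each mean ± SD in the report is of the log2 ratio over 3 lines unless stated. Within a line, entries that averaged 1 FPKM or more in its 2 libraries were counted when 2-fold apart. Libraries were paired by line, and the correlation of their deviations from group means within a line was 0.454, 0.541 and 0.549. The script was checked on simulated data with less noise than most factor genes show between lines. That check does not bear on how reliable the calls are here.

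The genes and lists were chosen with earlier results of these data known. Values in every library are given for the genes with the lowest and highest mean ratio of each factor group, for the genes of the pairs and for the 3 genes with the largest SD between lines. Eef1a1 and the genes outside the rule were named after their values were seen. Of the 62 genes, 17 share a locus with another entry of the table, so their fragments may be divided. Coordinates are those of the table with 1 added to each start: of 15944 entries matched to an annotation, the gene length was end minus start in 6377 and 1 base more in 166. One of the cell type markers is not reported here. Promoters were matched by symbol to RefSeq (GRCm38.p6), and 12 genes had none. Alternatives were other pseudocounts, filters, scalings, summed entries, leaving out each line, and no block.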

Additional observations from a re-analysis of the deposited data

Results flagged for a closer look

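Some genes went one way in a line and the other way in another line, which was not tested, since each line has 1 library per agent. Eif3j had a log2 ratio of 0.97 in ZNF and was below 0 in BBC and BCRF8C. Eif2ak3 was at 0.40 in ZNF and below 0 in the other lines. Eif5a2 was at 0.75 in BCRF8C, below 0 in BBC and listed at 0 in ZNF. Among the Argonaute genes, Eif2c4 was at 1.0 in ZNF and 1.81 in BCRF8C against a value below 0 in BBC. Eif2c3 was at 0.06 in BBC and 0.28 in ZNF against one below 0 in BCRF8C, and Eif2c1 was above 0 only in ZNF (0.11). These directions are those on the deposited scale. With the trend removed, Eif3j, Eif2c1 and Eif2c3 were above 0 in each line, and Eif5a2 was below 0 in each. Eif2ak3 and Eif2c4 still differed in direction between lines. Of the entries under the filter, Eif4e1b (0.088 and 1.10 FPKM) and Eif4e3 (0.660 and 1.99 FPKM) were also higher with BGJ398 in BCRF8C, where Eif2c5 was listed at 0. Ranks of such low values did not always rise with them. Eif2c4 in ZNF went from 0.236 to 1.47 FPKM while its rank went from percentile 17.0 to 15.3. Eif5a2 in BCRF8C went from 0.631 to 1.74 FPKM and from percentile 20.4 to 16.1. Values at these low ranks were thus higher with BGJ398 in those 2 comparisons. In BCRF8C the rank of Eif2c4 did rise, from percentile 14.3 to 32.5. The cause of higher low values was not tested.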

How the results depend on the processing

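The number of factor genes called lower (38) was 0 with median-of-ratios scaling, with quantile normalization and after removal of the trend. It was also 0 with no replicate block, where 1 of 14232 entries (0.00703%) was called lower. With no block, 39 factor genes had an unadjusted limma p under 0.05 (62.9%, beside 39.9% of all entries). All 39 were lower, beside 29.4% of all entries. Leaving out a line gave between 0 (without BBC) and 47 (without ZNF). It was within 1.5 times of 38 with pseudocounts of 0.1 and 5, other filters and summed entries. An alternative chosen after seeing the data, entries above 0 in all 6 libraries, gave 47 of 61 (77%; 44.5% of all entries, against 30.2% as reported). The cause of these differences was not tested. Values below are in the order median of ratios, quantile normalization and trend removed. The median of all factor genes was -0.76, -0.40 and -0.21. Genes at least 2-fold lower were 28, 22 and 16 of 62 in BBC (45.2%, 35.5% and 25.8%; all entries 13.8%, 17.3% and 11.3%), 4, 0 and 0 of 60 in ZNF (6.67%, 0% and 0%; all entries 6.58%, 6.37% and 4.46%), and 31, 15 and 11 of 62 in BCRF8C (50%, 24.2% and 17.7%; all entries 18.7%, 20.5% and 13.9%). Group medians were -0.76, -0.68 and -0.49 for eIF2B, 0.024, 0.13 and 0.25 for the eIF2 kinases, -0.96, -0.48 and -0.29 for eIF3, -0.52, -0.041 and 0.078 for eIF4E and eIF4G, -0.47, -0.34 and -0.21 for the eIF4E-binding genes, -0.29, -0.014 and 0.20 for eEF2, and 0.48, 0.15 and 0.21 for the Argonaute genes (-0.66 for means of 5 FPKM or more). With quantile normalization and then the trend removed they were -0.67 and -0.53 for eIF1 and eIF1A, -0.37 and -0.19 for eIF2, -0.77 and -0.57 for eIF4A, eIF4B and eIF4H, -0.39 and -0.21 for eIF5, eIF5A, eIF5B and eIF6, and -0.78 and -0.54 for eEF1. Single genes reversed as follows, in the same order: Eef2k 0.29, 0.32 and 0.46, Eif2ak3 0.24, 0.41 and 0.55, Eif3j 0.67, 0.80 and 0.94, and Eif4g3 0.49, 0.63 and 0.72. With quantile normalization and the trend removed, Eif2a was at 0.39 and 0.51, Eif2ak2 at 0.10 and 0.19, Eif4a2 at 0.017 and 0.23, and Eif4g2 at 0.12 and 0.31. With the trend removed, Eef1b2 was at 0.043, Eif4e2 at 0.078 and Eif4enif1 at 0.044, and Eif5a2 was at 0.13 under the median of ratios. Leaving out a line moved Eif3j between -0.58 (without ZNF) and 0.27 (without BBC), Eif5a2 between -0.92 (without BCRF8C) and 0.37 (without BBC), Eif2ak3 between -0.96 (without ZNF) and 0.020 (without BCRF8C), and Eif1 over Eif1b between -0.35 (without BBC) and 0.18 (without ZNF). Shares without the top 1% of entries were 1.20% and 0.560% in BBC, 1.77% and 1.54% in ZNF, and 1.40% and 0.789% in BCRF8C. FPKM without depth gives no counting error, which limits statements on low genes such as Eif2c4 and Eif5a2.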
